A study of Mus musculus with 12 samples.

Results

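Nuclear factor NRF2, encoded by Nfe2l2, switches on a programme of antioxidant, glutathione and haem-degrading enzymes, and 10 genes around it were followed: Nfe2l2 itself, its inhibitor Keap1, the target genes Hmox1, Nqo1, Gclc, Gclm, Txnrd1, Srxn1 and Slc7a11, and Sqstm1, which is both a target and an activator. They were given as a list of names, drawn up with earlier results of these data known, and all 10 were found among the 18820 genes with 1 symbol on the array, each by 1 probe set. The cells were primary cultures of B lymphomas that arose in l-MYC;B1-8f mice of strain C57BL/6J x BALB/c, 3 independent tumours numbered 2564, 2646 and 2676. Such mice carry a MYC transgene under lambda light chain control, active in B cells, and a heavy chain variable segment of the B-cell receptor (BCR) that Cre can delete. Every culture had been treated with TAT-Cre, a cell-permeable form of the recombinase, so the BCR-positive cells had met the enzyme too. BCR-positive and BCR-negative cells of each tumour grew together for 4 days, untreated or with CHIR99021, which inhibits the kinase GSK3, before sorting. Each tumour therefore gave 1 Affymetrix Mouse Gene 1.1 ST array in each of 4 groups of 3 (BCR-positive untreated, BCR-negative untreated, BCR-positive CHIR99021 and BCR-negative CHIR99021), 12 arrays in all. No dose of CHIR99021 and no solvent control are named in the labels used here.

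NRF2 is made continuously and destroyed as fast: KEAP1 hands it to a CUL3 ubiquitin ligase, and oxidants or electrophiles disarm KEAP1 so that NRF2 enters the nucleus and binds antioxidant response elements with small MAF partners. A separate route of destruction runs through GSK3, which phosphorylates NRF2 so that the ligase adaptor β-TrCP can bind it, and GSK3 is the kinase that CHIR99021 blocks. The protein SQSTM1 (p62) can take KEAP1 out of action, and BACH1 competes with NRF2 at the haem oxygenase gene until haem removes it. B lymphocytes use these enzymes to buffer the oxidants of rapid growth and of receptor signalling.

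Both genes whose promoter windows follow, Gclm and Txnrd1, passed the test for CHIR99021 described further on, and both windows hold an antioxidant response element core. The sequences are from RefSeq on mouse build GRCm38.p6 and run 5′ to 3′ on the strand of the gene, from 250 bases before to 50 bases after the annotated start. The Gclm window is chr3:122245307-122245606 (plus strand), and the Txnrd1 window, the only one of its 3 with the core, is chr10:82858956-82859255 (plus strand). Capitals mark the match to the core, TGACNNNGC, which in both windows lies on the opposite strand.
Gclm: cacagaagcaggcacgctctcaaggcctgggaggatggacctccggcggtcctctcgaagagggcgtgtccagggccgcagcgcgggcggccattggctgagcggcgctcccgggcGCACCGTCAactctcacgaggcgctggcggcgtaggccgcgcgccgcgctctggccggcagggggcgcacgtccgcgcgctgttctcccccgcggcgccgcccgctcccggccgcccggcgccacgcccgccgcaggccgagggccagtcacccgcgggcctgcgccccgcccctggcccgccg
Txnrd1: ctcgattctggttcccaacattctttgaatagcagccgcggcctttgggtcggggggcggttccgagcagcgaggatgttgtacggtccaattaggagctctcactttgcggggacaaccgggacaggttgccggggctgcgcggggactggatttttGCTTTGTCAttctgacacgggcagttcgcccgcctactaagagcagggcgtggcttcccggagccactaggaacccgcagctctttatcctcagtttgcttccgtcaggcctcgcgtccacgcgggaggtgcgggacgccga
The match begins 134 bases before the start of Gclm and 92 bases before that of Txnrd1. Windows were found for 8 of the 10 genes, 10 windows in all, and Hmox1 and Gclc had none. The core, searched on both strands, was present in 4 of the 10 windows, those of Nfe2l2, Gclm, Txnrd1 and Srxn1, against 12.4% of 32851 promoter windows of the same length. The AP-1 element TGANTCA was in the Srxn1 window at 2 places, against 7.81% of all windows. The FOXO element TGTTTAC was in that of Slc7a11, against 3.65%. The E-box CACGTG (7.15% of all windows) and the TCF/LEF element ATCAAAG (3.73%) were in none of the 10. A match is only a string of letters in this window and shows no binding.

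Whether the arrays held what their labels say was looked at first. Ighv1-72, the segment the B1-8 heavy chain is built from, was lower with BCR loss in every tumour and culture. BCR-negative cells held 10.3% to 38.2% of the BCR-positive signal without inhibitor and 7.92% to 18.2% with it. Of 7 B-cell markers measured, 6 were well above the dimmest 30% of genes (a mean log2 value under 4.12) and Ms4a1 was not, at 3.24. Of 12 macrophage markers, 7 lay in that dim range, among them Adgre1 (3.49 to 3.64 on all arrays). Others were brighter: Csf1r had a mean of 6.27 and ranged from 4.52 to 8.53, and Mrc1 ranged from 3.63 to 5.75. In the dim range lay 3 of 7 T-cell, 3 of 6 granulocyte and 3 of 8 stromal markers and none of 4 erythroid markers. Those 4 were close to it, though, with means of 4.16 to 4.66.

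The level of a gene is given as the deposited log2 value, in which 1 unit is a doubling. Because probe sets differ in brightness, levels are compared between arrays for 1 gene and never between genes. Tumour of origin set most of the variation in several of the genes. It took 78.4% of the sum of squares over the 12 arrays for Gclm, 75.3% for Keap1 and 71.1% for Hmox1, but 4.45% for Txnrd1. Txnrd1 and Gclc instead varied mainly with the 4 groups, which took 76.1% and 71.0%. For Srxn1, 70.7% belonged to neither. Changes are therefore given within tumours, as a mean log2 difference with the standard error after the ± sign, n = 3 tumours, from a limma model with group and tumour over all 12 arrays. A gene is called when its p, adjusted over 18820 genes, is below 0.05. In RNA from sorted populations, more cells expressing a gene and more RNA per cell cannot be told apart.

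**Figure D1:**
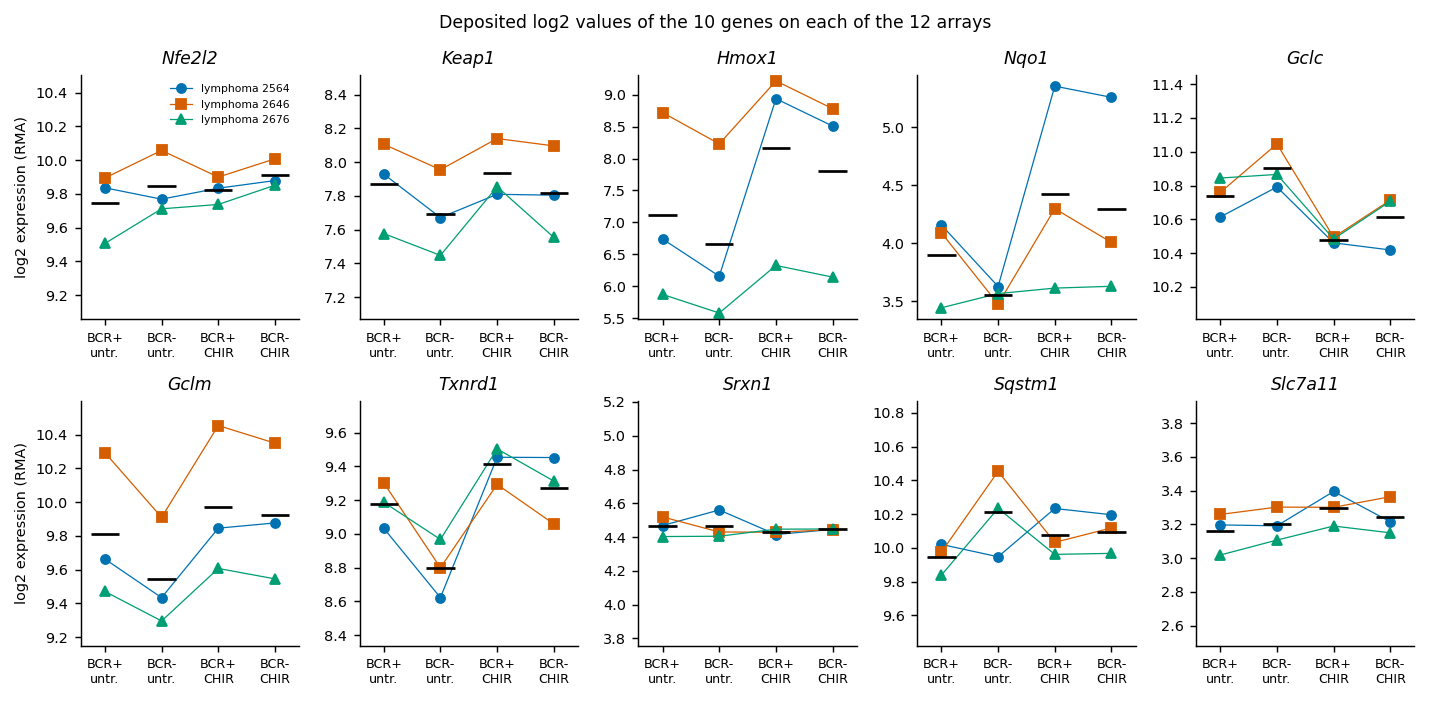
Deposited log2 value (vertical axis, RMA) of each of the 10 genes on the 12 arrays, by group on the horizontal axis; points are arrays, thin lines join the 4 arrays of a tumour, and black bars are group means. Hmox1 spans 5.58 to 9.22 with the tumours widely apart, while Srxn1 stays between 4.40 and 4.56.

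CHIR99021 raised Hmox1, Gclm and Txnrd1 and lowered Gclc when its effect was averaged over both populations. These are 3 of 10 genes called higher, where 3.91% of all genes were, and 1 called lower, where 3.47% were. Over the 10 genes the median difference was 0.09 and 8 were positive, beside a median of 0.01 and 53.4% positive over all genes. At an unadjusted p under 0.05, 6 of the 10 passed, beside 20.8% of all genes. Both populations of a tumour shared a dish, and with 1 difference per tumour none of the 4 was called (limma, adjusted p = 0.0511 to 0.185).

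Hmox1 encodes haem oxygenase 1, which breaks haem down to biliverdin, iron and carbon monoxide. In BCR-positive cells of tumours 2564, 2646 and 2676 its log2 level was 6.74, 8.72 and 5.87 untreated and 8.94, 9.22 and 6.32 with CHIR99021. In BCR-negative cells it was 6.16, 8.23 and 5.58 untreated and 8.51, 8.78 and 6.14 with CHIR99021. All 6 pairs of arrays were higher with the inhibitor, though the groups overlapped, with the tumours far apart. The mean difference was 1.10 ± 0.271 (2.15-fold; limma, adjusted p = 0.0399). Its size differed between tumours: 2.28 in 2564 (4.84-fold) against 0.52 in 2646 and 0.51 in 2676. Tumour 2564 thus went from well below the level of 2646 to near it. Without 2564 the difference was 0.52 and was still called (limma, adjusted p = 0.0185). It was not called without 2646 (1.39, adjusted p = 0.139) or without 2676 (1.40, adjusted p = 0.0928). Leaving out 1 array ended the call in 10 of 12 cases, the exceptions being the BCR-negative arrays of 2676.

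Gclm encodes the regulatory subunit of glutamate-cysteine ligase, the enzyme that limits glutathione synthesis. Its level in BCR-positive cells was 9.66, 10.29 and 9.47 untreated (tumours 2564, 2646 and 2676) and 9.85, 10.45 and 9.61 with CHIR99021. In BCR-negative cells it was 9.43, 9.91 and 9.30 untreated and 9.88, 10.35 and 9.55 with CHIR99021. Every pair of arrays was higher with the inhibitor. The mean rise was 0.27 ± 0.0426 (1.20-fold; limma, adjusted p = 0.00893), with 0.31, 0.30 and 0.19 in the 3 tumours. It was not called without 2564 (0.25, adjusted p = 0.0795) or without 2646 (0.25, adjusted p = 0.106).

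Gclc, which encodes the catalytic subunit of the same enzyme, went the other way. It stood at 10.61, 10.76 and 10.84 in untreated BCR-positive cells and at 10.46, 10.49 and 10.48 with CHIR99021, so those groups did not overlap. In BCR-negative cells it stood at 10.79, 11.05 and 10.87 untreated and at 10.42, 10.71 and 10.71 with CHIR99021, again without overlap. The mean difference was -0.27 ± 0.0490, a fall of 17.3% (limma, adjusted p = 0.0132), and the 3 tumours were close to each other at -0.26, -0.30 and -0.26. The call was lost when any of the tumours was left out (adjusted p = 0.0614 to 0.126). On the arrays the 2 subunit genes moved in opposite directions: after centring each tumour, Gclc and Gclm had a Pearson r of -0.94 over the 12 arrays, which share tumours and cultures and give no test.

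Txnrd1 encodes cytosolic thioredoxin reductase. Its levels were 9.03, 9.30 and 9.19 in untreated BCR-positive cells and 9.45, 9.29 and 9.50 with CHIR99021, and 8.62, 8.80 and 8.97 in untreated BCR-negative cells and 9.45, 9.06 and 9.31 with CHIR99021. It was higher with the inhibitor in 5 of 6 pairs, the exception being BCR-positive cells of 2646. The mean rise was 0.36 ± 0.0810 (1.28-fold; limma, adjusted p = 0.0293), at 0.62, 0.12 and 0.33. Leaving out any of the tumours ended the call (adjusted p = 0.0727 to 0.158), and without 2564 the difference was 0.23. Leaving out 1 array ended it in 7 of 12 cases, and it was kept without either BCR-negative array of 2676, the untreated BCR-negative array of 2564, or the untreated BCR-positive or CHIR99021 BCR-negative array of 2646.

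Nqo1, the quinone reductase that is often used as a readout of NRF2, was dim, with a mean of 4.04. It lay between 3.44 and 4.30 on the 8 arrays of 2646 and 2676 and at 4.16 and 3.63 in untreated cells of 2564, and was higher on the 2 CHIR99021 arrays of 2564, at 5.35 and 5.26. The mean difference was 0.63 ± 0.200 with 1.42, 0.37 and 0.12 in the tumours, and did not pass (limma, adjusted p = 0.0925). Hmox1 and Nqo1 had a Pearson r of 0.97 after centring each tumour, and in both the largest differences were those of 2564.

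**Figure D2:**
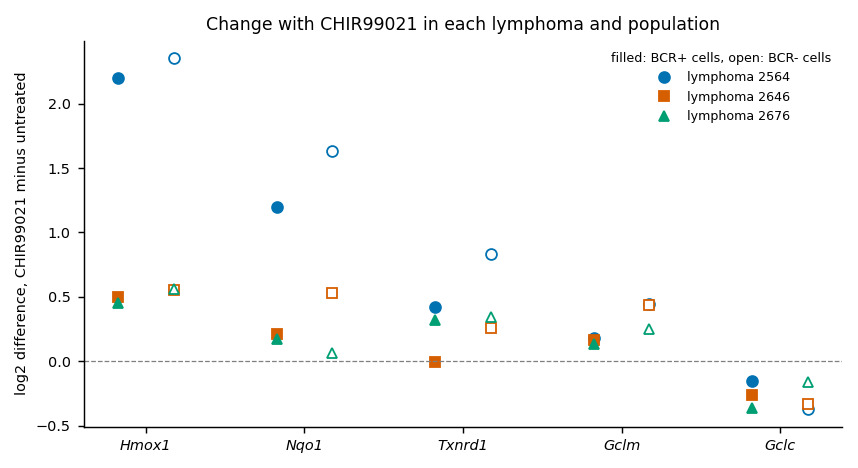
Log2 difference between CHIR99021 and untreated cells of the same tumour and population (vertical axis) for 5 genes (horizontal axis); each point is 1 pair of arrays, coloured by tumour, filled for BCR-positive and open for BCR-negative cells. Tumour 2564 reaches 2.20 and 2.35 for Hmox1 while the others stay between 0.45 and 0.56, and all 6 points of Gclc lie below 0.

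Nfe2l2, Keap1 and the remaining targets did not pass. Nfe2l2 differed by 0.07 ± 0.050 (limma, adjusted p = 0.490) within levels of 9.51 to 10.06, and Keap1 by 0.10 ± 0.0509 (adjusted p = 0.340) within 7.45 to 8.14. The transcript of NRF2 does not measure its protein, which is where KEAP1 and GSK3 act. Slc7a11, the cystine importer that feeds glutathione synthesis, was dim at 3.02 to 3.39 on all arrays and differed by 0.09 ± 0.0401 (adjusted p = 0.239), higher in 6 of 6 pairs. Srxn1, which encodes sulfiredoxin and repairs overoxidised peroxiredoxins, differed by -0.03 ± 0.0391 (95% interval -0.11 to 0.06). Sqstm1 differed by 0.01 ± 0.0825 with the tumours apart, at 0.23 in 2564 and -0.14 and -0.07 in 2646 and 2676.

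Taken population by population, the effect of CHIR99021 was called for 1 gene. In BCR-negative cells Gclm rose by 0.38 ± 0.0603 (1.30-fold; limma, adjusted p = 0.0150; 0.44, 0.44 and 0.25 in the tumours). That is 1 of 10 higher, beside 1.91% of all genes, and none of 10 lower, beside 1.76%. Leaving out any tumour ended that call (adjusted p = 0.0595 to 0.185), as did leaving out 1 of 3 single BCR-negative arrays: CHIR99021 of 2564, untreated of 2646 and CHIR99021 of 2646. Txnrd1 (0.48 ± 0.114, adjusted p = 0.0521) and Gclc (-0.29 ± 0.0693, adjusted p = 0.0524) stood just outside the threshold, and Hmox1 (1.16 ± 0.384, adjusted p = 0.129) and Nqo1 (0.74 ± 0.283, adjusted p = 0.186) further out. At an unadjusted p under 0.05, 5 of the 10 passed in limma, beside 19.0% of all genes.

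In BCR-positive cells none of the 10 was called, where 0.0744% of all genes were, and 4 had an unadjusted p under 0.05 in limma, beside 10% of all genes. Those 4 were Hmox1 (1.05 ± 0.384, limma adjusted p = 0.378), Gclc (-0.26 ± 0.0693, adjusted p = 0.225), Gclm (0.16 ± 0.0603, adjusted p = 0.390) and Slc7a11 (0.14 ± 0.0568, adjusted p = 0.450). Txnrd1 was not among them, at 0.24 ± 0.114 (limma, adjusted p = 0.522). Whether the inhibitor acted differently in the 2 populations was tested by the interaction, and none of the 10 passed; limma called 0% of all genes there, and 990 had an unadjusted p under 0.05, among them 1 of the 10. That was Gclm, whose difference was 0.22 ± 0.0852 larger in BCR-negative cells (limma, adjusted p = 0.928). For Hmox1 the interaction was 0.11 with a 95% interval from -1.11 to 1.32, and for Gclc -0.03 with an interval from -0.25 to 0.19.

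Of the 10 genes, Gclm alone passed for loss of the BCR in untreated cultures. It fell in BCR-negative cells by 0.26 ± 0.0603, or 16.6% (limma, adjusted p = 0.0445), with -0.23, -0.38 and -0.17 in the tumours. That is 1 of 10 called lower, beside 2.3% of all genes, and none called higher, beside 1.91%. The call stood close to the threshold: it was lost without any of the tumours (adjusted p = 0.100 to 0.404) and without any 1 of 9 of the 12 arrays (all but the BCR-negative CHIR99021 array of 2564 and the BCR-negative arrays of 2676), and with each co-culture as the block (adjusted p = 0.0622). The median over the 10 genes was -0.09, beside 0.00 over all genes, and 5 had an unadjusted p under 0.05 in limma, beside 20.5% of all genes.

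Txnrd1 was lower in BCR-negative cells in 6 of 6 pairs, by 0.41, 0.50 and 0.22 without inhibitor. With CHIR99021 its differences were -0.00164, -0.23 and -0.19, so the pair of 2564 was nearly equal. In untreated cultures Txnrd1 did not pass (-0.38 ± 0.114, limma, adjusted p = 0.0928). Hmox1 was also lower in 6 of 6 pairs. Its difference of -0.45 ± 0.384 did not pass (adjusted p = 0.593). With each co-culture as the block, which sets cells from 1 dish against each other, both were called in untreated cultures (adjusted p = 0.0324 for Hmox1 and 0.0409 for Txnrd1). Keap1 was lower in 6 of 6 pairs too, by 0.18 ± 0.0720 in untreated cultures (limma, adjusted p = 0.193), though the CHIR99021 pair of 2564 stood at -0.00515. Gclc differed by 0.16 ± 0.0693 (adjusted p = 0.222).

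Sqstm1 was higher in BCR-negative cells of 2646 (10.45 against 9.98) and 2676 (10.23 against 9.84) and not of 2564 (9.95 against 10.02). The mean difference of 0.27 ± 0.117 did not pass (limma, adjusted p = 0.233). Without tumour 2564 it was 0.44 (adjusted p = 0.0233), and without the untreated BCR-negative array of 2564 alone it was 0.45 (adjusted p = 0.00885). Nfe2l2 (0.10), Nqo1 (-0.34), Srxn1 (0.00) and Slc7a11 (0.04) had adjusted p of 0.50 to 0.994.

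In cultures with CHIR99021 no difference between BCR-negative and BCR-positive cells was called for the 10 genes, where 0.0159% of all genes were, and none had an unadjusted p under 0.05 in limma, beside 8.65% of all genes. Gclm stood at -0.05 ± 0.0603, Txnrd1 at -0.14 ± 0.114 and Hmox1 at -0.35 ± 0.384. Averaged over both cultures, none of the 10 was called either, where 6.63% of all genes were, and 4 had an unadjusted p under 0.05, beside 22.6% of all genes. Nearest to the threshold in limma were Gclm (-0.15 ± 0.0426, adjusted p = 0.0611) and Txnrd1 (-0.26 ± 0.0810, adjusted p = 0.0848). With each co-culture as the block, Hmox1 (-0.40, adjusted p = 0.0128) and Txnrd1 (adjusted p = 0.0361) were called for this average. With 1 difference per tumour neither was (adjusted p = 0.0860 for Hmox1 and 0.107 for Txnrd1). The comparisons share arrays, so a gene that is low in untreated BCR-negative cells enters as a fall with BCR loss and as a rise with CHIR99021.

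**Figure D3:**
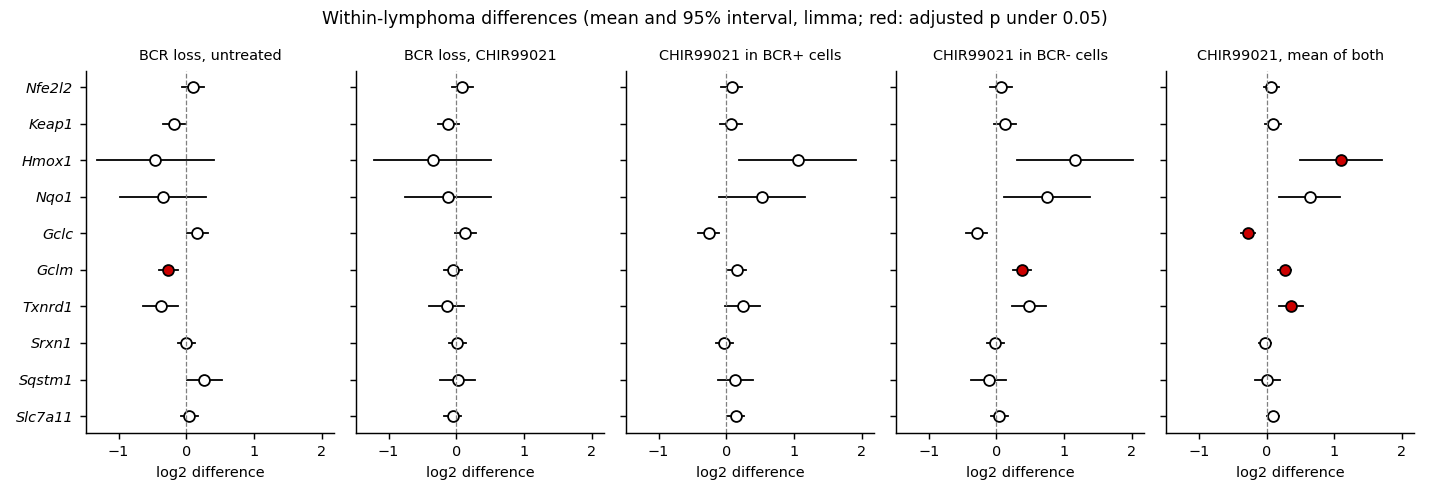
Mean log2 difference (horizontal axes) of each gene (rows) in 5 comparisons, from the limma model with tumour as a block; lines are 95% intervals, n = 3 tumours, and red points have an adjusted p under 0.05. Gclm is red in 3 of the panels, and the intervals of Hmox1 and Nqo1 are the widest.

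Subtracting each array's median before the fit, which moved the median of all genes by at most 0.07, made the split of calls over all genes more uneven. The share of called genes that were higher went from 53.0% to 77.0% for the averaged effect of CHIR99021, from 52.0% to 76.8% in BCR-negative cells, from 45.4% to 22.1% for BCR loss in untreated cultures and from 47.8% to 21.3% for BCR loss averaged. Cyclic loess moved the share across an even split, to 40.1% in BCR-negative cells and to 59.8% for BCR loss in untreated cultures. Hmox1, Gclm, Txnrd1 and Gclc kept their directions for the averaged effect of CHIR99021 under both scalings.

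Genes around the 10 were read from lists of other NRF2, redox and stress genes, 96 measured genes in all. For the averaged effect of CHIR99021, 12 were called higher and 6 lower, where 3.91% and 3.47% of all genes were. In BCR-negative cells alone 4 were higher and 3 lower, beside 1.91% and 1.76% of all genes. In BCR-positive cells 1 was lower, beside 0.0744% of all genes called in either direction. For BCR loss in untreated cultures 4 were higher and 5 lower, beside 1.91% and 2.3%. In CHIR99021 cultures none was called, beside 0.0159%, and for the average 5 were higher and 7 lower, beside 6.63% in either direction. For the interaction none was called, beside 0%.

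Of 12 genes that control or partner NRF2, the only call was Btrc, which encodes the β-TrCP adaptor of the GSK3 route. It fell by 0.29 ± 0.0567 for the averaged effect of CHIR99021 (18.3%; limma, adjusted p = 0.0177). That is 1 of 12 called lower, beside 3.47% of all genes. The median over the 12 was 0.00. In BCR loss, the smallest p of this list in untreated cultures belonged to the haem-sensing repressor Bach1, at 0.27 ± 0.0825 (adjusted p = 0.0948), and in CHIR99021 cultures to Gsk3b, at 0.12 ± 0.0527 (adjusted p = 0.567).

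Among 12 haem and iron genes, CHIR99021 raised 2 and lowered none, where 3.91% of all genes were called higher. Abcb6, a porphyrin transporter, rose by 0.34 ± 0.0512 (limma, adjusted p = 0.00718), and Flvcr1, a haem exporter, by 0.33 ± 0.0683 (adjusted p = 0.0216). The list's median was 0.11. In untreated BCR-negative cells Abcb6 fell by 0.39 ± 0.0724 (adjusted p = 0.0274), and Blvra, the biliverdin reductase that acts after haem oxygenase, by 0.46 ± 0.0959 (adjusted p = 0.0333). Slc11a2, an iron importer, rose there by 0.53 ± 0.114 (adjusted p = 0.0364).

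Of 20 glutathione genes 2 rose with CHIR99021 (3.91% of all genes did) and none fell, with a median of 0.04. Gsr, the reductase that regenerates glutathione, rose by 0.50 ± 0.121 (1.41-fold; limma, adjusted p = 0.0381), by 0.59, 0.49 and 0.41 in the tumours. Chac2, which degrades glutathione, rose by 0.31 ± 0.0565 (adjusted p = 0.0144). Gss, the second enzyme of glutathione synthesis, was not among the CHIR99021 calls. It fell with BCR loss averaged over both cultures, by 0.39 ± 0.0854 (limma, adjusted p = 0.0315). In that comparison Gstt2, also on this list, rose by 0.53 ± 0.120 (limma, adjusted p = 0.0341). These were 1 of 20 in each direction, beside 6.63% of all genes called in either direction.

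Of 12 thioredoxin and peroxiredoxin genes 2 rose with CHIR99021 (beside 3.91% of all genes) and none fell, with a median of 0.07. Prdx3, the mitochondrial peroxiredoxin, rose by 0.29 ± 0.0460 (limma, adjusted p = 0.00946). In untreated BCR-negative cells it fell by 0.38 ± 0.0651 (adjusted p = 0.0219). Sesn2, a stress-induced sestrin, rose by 0.66 ± 0.154 (adjusted p = 0.0346), by 1.14 in tumour 2564 and by 0.41 and 0.42 in the others. Txnip, the inhibitor of thioredoxin, rose by 0.82 ± 0.116 in untreated BCR-negative cells (1.76-fold; adjusted p = 0.0137).

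Of 16 detoxification and NADPH genes 2 rose with CHIR99021 (beside 3.91% of all genes) and none fell, with a median of 0.12. They were Sod2, the mitochondrial superoxide dismutase (0.18 ± 0.0419; limma, adjusted p = 0.0364), and Pgd of the pentose phosphate pathway (0.24 ± 0.0608; adjusted p = 0.0436). For BCR loss averaged over both cultures Taldo1, also of that pathway, fell by 0.38 ± 0.0833 (adjusted p = 0.0329).

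Of 15 genes of the amino acid response driven by ATF4, a factor that also acts on Slc7a11, 5 rose with CHIR99021 and none fell, beside 3.91% and 3.47% of all genes, with a median of 0.21. The 4 with the smallest p were Mthfd2 (0.40 ± 0.0784; limma, adjusted p = 0.0177), Sesn2, which is also in the thioredoxin list, Asns (0.40 ± 0.0971; adjusted p = 0.0374) and Slc7a1 (0.23 ± 0.0597; adjusted p = 0.0467). In untreated BCR-negative cells Mthfd2 and Psat1 fell, by 0.48 ± 0.111 and 0.42 ± 0.0932 (limma, adjusted p = 0.0441 and 0.0390).

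Sqstm1 is an autophagy receptor, and 10 other receptors, LC3 family genes and regulators of autophagy were measured. Of these, 5 fell with CHIR99021, 5 did not pass and none rose (3.47% of all genes were called lower). The median was -0.19, and 2 of the differences were positive. Calcoco1 fell by 1.11 ± 0.121 (53.5%; limma, adjusted p = 0.00208), Tax1bp1 by 0.53 ± 0.0416 (adjusted p = 0.000725), Nbr1 by 0.55 ± 0.0787 (adjusted p = 0.00609) and Map1lc3b by 0.32 ± 0.0666 (adjusted p = 0.0219). Tax1bp1 fell in BCR-positive cells alone as well (0.51 ± 0.0588; adjusted p = 0.0387). In untreated BCR-negative cells Calcoco1 rose by 1.11 ± 0.171 and Tax1bp1 by 0.26 ± 0.0588 (adjusted p = 0.0171 and 0.0444). Sqstm1 itself was not called in any of the 7 comparisons.

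Hmox1 is also abundant in macrophages, so its values were set beside the macrophage markers. The summed linear signal of the 12 markers was 200 and 207 on the untreated arrays of tumour 2564 (BCR-positive and BCR-negative) and 207 and 212 on its CHIR99021 arrays, while its Hmox1 rose 4.84-fold. In 2646 the sum went from 304 and 355 to 549.8 and 420, and in 2676 from 260 and 272 to 304 and 300.4. Because 7 of the 12 markers lay in the dim range, part of each sum is background. The brightest of the 12 was Csf1r, at 4.52 to 8.53. For the averaged effect of CHIR99021 the markers had a median of 0.04 in 2564, 0.06 in 2646 and 0.02 in 2676. Of the 12, only Csf1r was called higher (0.66 ± 0.164; limma, adjusted p = 0.0417), where 3.91% of all genes were. Its differences were 0.11, 1.12 and 0.73 in the tumours. In BCR-negative cells only Lyz2 was called higher (0.46 ± 0.100; limma, adjusted p = 0.0389), where 1.91% of all genes were. It lay at levels of 3.52 to 4.28. The part of macrophages in the changes of Hmox1 was not tested. The B-cell markers moved with CHIR99021 too: all 7 differences were negative, while 53.4% of those of all genes were positive. Ebf1 (-0.80 ± 0.187), Pax5 (-0.37 ± 0.0799) and Cd79b (-0.32 ± 0.0427) were called lower. That is 3 of 7, beside 3.47% of all genes. Ebf1 differed by -1.57 in 2564 and by -0.38 and -0.44 in the others. The tumour with the largest rise of Hmox1 thus also had the largest fall of Ebf1, which over 3 tumours gives no test. Of the stromal and endothelial markers, Pecam1 was called lower with CHIR99021 (-0.62 ± 0.127; limma, adjusted p = 0.0211), at -1.08, -0.46 and -0.31 in the tumours, and higher with BCR loss averaged over both cultures (0.54 ± 0.127; adjusted p = 0.0381). The 8 markers of that list summed to 476 to 692 in untreated BCR-positive, 635 to 890 in untreated BCR-negative, 312 to 561 in CHIR99021 BCR-positive and 395 to 802 in CHIR99021 BCR-negative cells. Pecam1 was the brightest of the 8, at 7.09 to 9.45, and Cdh5 came next with a highest value of 6.19, so Pecam1 weighs most in these sums. The erythroid marker Epor was called lower with CHIR99021 (-0.22 ± 0.0515; limma, adjusted p = 0.0357), at levels of only 4.49 to 5.05. The part of these markers in the results was not tested.

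**Figure D4:**
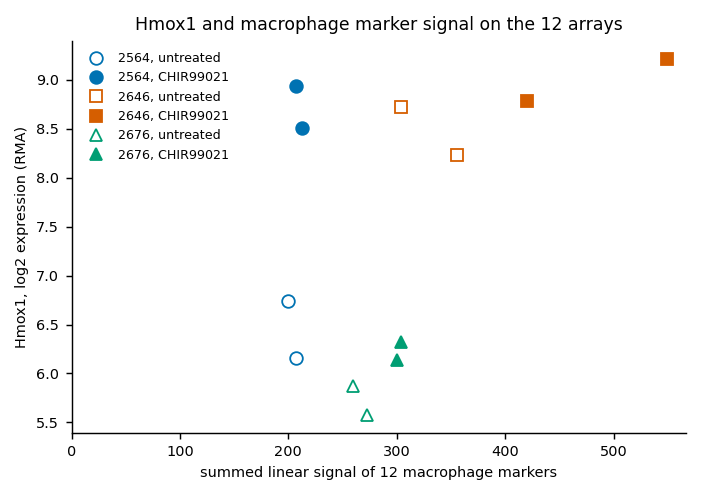
Log2 level of Hmox1 (vertical axis) against the summed linear signal of 12 macrophage markers (horizontal axis, from 0) on the 12 arrays, coloured by tumour, open for untreated and filled for CHIR99021. In tumour 2564 Hmox1 goes from 6.16 and 6.74 to 8.51 and 8.94 while the marker sum stays between 200 and 212. Because 7 of the 12 markers are dim, part of each sum is background, and the part of macrophages was not tested.

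For each gene called in any comparison, the 3 genes of all 18820 whose values tracked it most closely after centring each tumour were read off, as a description over 12 arrays that share tumours and cultures. For Hmox1 they were Cdkn1a (Pearson r = 0.99), which encodes the cell cycle inhibitor p21, the lysosomal lipase gene Lipa (0.97) and Trip10 (0.97). For Gclm they were the proteasome subunit gene Psma1 (0.99), Tmx1 (0.99) and the translocon gene Ssr1 (0.98). For Txnrd1 they were Rwdd4a (0.98), Cltb (0.97) and Emc4 (0.97), and for Gclc Uevld (0.98), Slc2a8 (0.97) and Islr2 (0.97). None of these 12 genes is among the 10 or in the lists above. Within the 10, Gclm and Txnrd1 had r = 0.91 and Hmox1 and Txnrd1 r = 0.90, while Nfe2l2 had r between -0.10 and 0.15 with every target except Slc7a11 (0.52) and Sqstm1 (0.57).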

How the data were processed

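The authors deposited 1 log2 value for each probe set and array, and the submitters' processing notes name RMA and Affymetrix Power Tools without versions. Of 35556 probe sets, 21218 carried 1 symbol in the platform annotation and gave 18820 genes, with the brightest probe set taken for each. Gene positions are not printed, since no build is named for the annotation. With limma 3.58.1 in R 4.3.3, group and tumour were fitted over 12 arrays (6 residual degrees of freedom), with eBayes and Benjamini-Hochberg adjustment; the linear model was tested on simulated data. Tumour was a block because the labels number 3 independent lymphomas, and the design states that both populations of each shared a culture. Deviations from group means correlated at r of 0.813 to 0.907 within a tumour (18 pairs). The arrays' number limits the precision. Summed marker signals are sums of 2 to the power of the log2 value. The 10 genes, the other lists and the tests were chosen with earlier results of these data known. Of each other list, called genes were named up to 4 per direction by smallest p, and the smallest p where none was called; a selection of these is printed. Alternatives were other blocks, filters, scalings and adjustments, and leaving out tumours or arrays.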

Additional observations from a re-analysis of the deposited data

How the results depend on the processing

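No called value of the 10 genes changed its sign under any alternative run, but in many runs it could not. Other blocks, the arrays compared alone, the filter on dim genes and other adjustments leave the difference itself unchanged. Each called value also had the same sign in all 3 tumours, so leaving out a tumour could not change it. The pairing by tumour carried the calls: with no replicate block, 0 of the 10 were called in each of the 7 comparisons, and with tumour as a random replicate block 0 were called for BCR loss in untreated cultures and for CHIR99021 in BCR-negative cells and 1 (Gclc) for the averaged effect of CHIR99021, where 4 had been. Over all genes the averaged effect of CHIR99021 had 1389 calls with the block, 22 without it and 220 with the random block. With each co-culture as the block, 2 were called for BCR loss in untreated cultures (Hmox1 and Txnrd1 in place of Gclm) and 2 for BCR loss averaged. With each population of a tumour as the block, Hmox1 lost its call for the averaged effect of CHIR99021 (limma, adjusted p = 0.0611). With only the arrays compared, 0 were called for BCR loss in untreated cultures and for CHIR99021 in BCR-negative cells.

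The averaged effect of CHIR99021 treats both populations of a tumour as separate measurements, although they shared a dish. An alternative chosen after seeing the data took 1 difference per tumour instead. It called 0 of the 10 genes (limma, adjusted p = 0.0511 for Gclc, 0.0589 for Gclm, 0.130 for Txnrd1 and 0.185 for Hmox1, with 5 at an unadjusted p under 0.05) and 302 of all genes. This fit has fewer residual degrees of freedom.

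For CHIR99021 in BCR-negative cells, 3 were called after leaving out dim genes and 3 with a trended and robust eBayes (Gclm, Txnrd1 and Gclc in both), and 2 after subtracting array medians. Adjusting over all probe sets left 0 for BCR loss in untreated cultures and 2 for the averaged effect of CHIR99021. Subtracting array medians gave 2 for BCR loss in untreated cultures and 2 for BCR loss averaged, and cyclic loess gave 0 for BCR loss in untreated cultures. Leaving out a tumour or an array gave 0 to 1 for BCR loss in untreated cultures, 0 to 2 for CHIR99021 in BCR-negative cells, 0 to 3 for BCR loss averaged and 0 to 5 for the averaged effect of CHIR99021. The cause of these changes was not tested. These counts stand without the share of all genes called under each setting. A change in the followed genes therefore cannot be told apart here from a change in calls over all genes. Of 25 alternatives, the averaged CHIR99021 call was kept in 20 for Gclm, 20 for Gclc, 11 for Txnrd1 and 7 for Hmox1. The Gclm call for BCR loss in untreated cultures was kept in 7 of 25. The alternatives overlap and are not independent: 12 of them leave out 1 array each. Averaging a gene's probe sets leaves the values of the 10 genes unchanged, since each has 1 probe set. Nqo1, Slc7a11 and, nearly, Srxn1 lie in the dim range, where array signal says little about a difference.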
